A study of Mus musculus with 8 samples.

Results

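Nucleotide excision repair cuts a short stretch of damaged DNA out of 1 strand and refills it, and the 30 genes described here encode its machinery apart from the Ercc1-Ercc4 nuclease and Xpa. They were taken from a named list, chosen with earlier results of these data known. All 30 were found among the 15274 genes that the deposited table holds after the 1 row of highest total count was kept per gene. Messenger RNA had been sequenced from the ventral mesencephalic area of the brain in 4 Ercc1 delta/+ samples, from mice with 1 mutant and 1 normal Ercc1 allele, and in 4 wild type samples. Both groups were of FVB:C57BL/6J background on a regular diet, and the labels give no age. The comparison asks how far the partner genes of a repair nuclease differ in midbrain when 1 of its alleles is mutant. What transcript the delta allele makes, and whether the samples came from different animals, is not stated in the labels; the p-values therefore reflect variation among the samples as labelled, some of which may be technical. Means are given ± SD over the 4 libraries of a group.

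In the global form of the pathway, the XPC complex and the UV-damaged DNA binding protein scan the genome for lesions that distort the helix. In the transcription-coupled form, an RNA polymerase stalled at a lesion is recognised by the Cockayne syndrome proteins. Both forms then hand over to the transcription factor TFIIH, which opens the helix, after which the strand is cut on either side of the lesion and the gap is filled by replication proteins. Neurons no longer divide, and inherited loss of several of these genes is known to cause disease of the nervous system in people.

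Depth ran from 18268373 to 27146604 counts in the Ercc1 delta/+ libraries and from 20517887 to 31197522 counts in the wild type libraries, and 3 counts corresponded to between 0.0915 and 0.17 CPM, a limit that covers counting error only. CPM is the count scaled to a common library size after TMM normalisation. The 4 libraries of lowest total were Ercc1 delta/+ 1, 2 and 4 and wild type 2, so each depth group holds a single library of 1 genotype and no value within it can be had. Ercc1, the mutated gene, held 10.2, 12.9, 11.1 and 11.9 CPM in Ercc1 delta/+ libraries 1 to 4, against 14.1, 15.4, 15.0 and 13.8 CPM in wild type libraries 1 to 4. Its groups did not overlap, but its log2 fold change of -0.34 (SE 0.10) missed the threshold in edgeR's quasi-likelihood test (adjusted p = 0.114), while DESeq2 called it. Ercc4, the other subunit of the nuclease, had 0.07 (SE 0.07) and Xpa, which holds the repair complex together, -0.53 (SE 0.19), and neither passed in either tool. All 10 dopaminergic marker genes looked for were detected, with summed levels of 297 to 553 CPM in Ercc1 delta/+ and 394 to 601 CPM in wild type. Markers of neighbouring tissue also varied. The summed level of 8 choroid plexus and ependyma genes was 104 to 1150 CPM in Ercc1 delta/+ and 87.9 to 179 CPM in wild type, and that of 8 cortical and hippocampal neuron genes 457 to 1180 CPM in Ercc1 delta/+ and 278 to 761 CPM in wild type. The 7 hypothalamic peptide genes found, of 8 listed, summed to 24.3 to 432 CPM in Ercc1 delta/+ and 315 to 756 CPM in wild type. By mutant library 1 to 4, the hypothalamic sums were 254, 24.3, 432 and 378 CPM. The choroid plexus and ependyma sums were 371, 490, 1150 and 104 CPM. The cortical and hippocampal sums were 1160, 1180, 457 and 646 CPM, and 435, 761, 435 and 278 CPM in wild type libraries 1 to 4. The 4 libraries of lowest total thus held the 4 highest of these sums. Depth and the content of these neurons therefore cannot be told apart, also where a term for depth is used below. The part of these markers in the results below was not tested, and in whole tissue fewer cells of a type and less RNA per cell cannot be told apart.

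Promoter windows are shown for 4 genes. Ercc8 and Rpa3 were lower in every Ercc1 delta/+ library than in any wild type library, and Rad23b was higher in every Ercc1 delta/+ library. Such groups without overlap were found for 3 of the 30 (10.0%), against 1803 of 14989 genes tested, a similar share. Ercc6 had the largest positive fold change of the 30 as normalised by TMM. For these 4 genes, the 250 bases before the start of transcription are shown 5′ to 3′ on the strand of the gene. They come from the RefSeq promoter table on build GRCm38.p6. Capitals mark exact matches, on either strand, to 6 motifs: CCGGAAG of ETS factors, the GC box GGGCGG, the CCAAT box CCAAT, GCATGCGC of NRF1, TTGGCGC of E2F factors and the TATA box TATAAA, and some matches overlap.
Ercc8 (chr13:108158488-108158737, plus strand): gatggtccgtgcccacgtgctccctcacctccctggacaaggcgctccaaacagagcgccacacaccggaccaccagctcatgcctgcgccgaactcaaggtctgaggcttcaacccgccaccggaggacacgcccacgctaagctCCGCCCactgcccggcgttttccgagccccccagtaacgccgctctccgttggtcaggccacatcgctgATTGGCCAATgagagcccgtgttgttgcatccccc
Rpa3 (chr6:8259142-8259391, minus strand): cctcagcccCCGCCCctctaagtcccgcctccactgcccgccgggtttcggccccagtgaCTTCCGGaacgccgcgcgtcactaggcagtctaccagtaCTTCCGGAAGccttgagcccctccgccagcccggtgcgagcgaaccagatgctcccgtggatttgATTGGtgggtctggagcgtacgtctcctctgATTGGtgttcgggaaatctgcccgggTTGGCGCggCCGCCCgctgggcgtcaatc
Rad23b (chr4:55349792-55350041, plus strand): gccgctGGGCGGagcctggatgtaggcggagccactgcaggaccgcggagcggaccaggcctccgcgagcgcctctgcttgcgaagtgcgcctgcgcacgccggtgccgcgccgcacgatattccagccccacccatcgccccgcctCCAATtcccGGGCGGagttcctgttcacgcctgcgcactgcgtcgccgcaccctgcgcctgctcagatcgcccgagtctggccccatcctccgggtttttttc
Ercc6 (chr14:32513271-32513520, plus strand): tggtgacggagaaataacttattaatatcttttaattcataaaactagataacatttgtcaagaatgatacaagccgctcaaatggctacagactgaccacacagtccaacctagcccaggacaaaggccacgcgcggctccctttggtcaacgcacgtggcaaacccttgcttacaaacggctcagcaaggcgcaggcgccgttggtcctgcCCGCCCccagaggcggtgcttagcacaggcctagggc
The Rpa3 window holds 3 ETS, 2 GC box, 2 CCAAT box and 1 E2F match. The Ercc8 window holds 1 GC box and 2 CCAAT matches, Rad23b 2 GC boxes and 1 CCAAT match, and Ercc6 1 GC box. Promoter entries were found for 25 of the 30 genes, all but Xpc, Ddb2, Ercc3, Ccnh and Pole. Of these 25, 18 (72.0%) hold a GC box, against 61.7% of 11736 tested genes with an entry and 32.7% of all 32851 windows. A CCAAT box was found in 13 genes (52.0%), against 40.3% of tested genes and 33.8% of windows, and an ETS match in 5 (20.0%), against 13.8% of tested genes and 6.91% of windows. NRF1 and E2F matches were found in 2 genes each (8.0%), against 4.62% and 3.95% of tested genes and 2.26% and 1.97% of windows. A TATA box was in 0 of the 25, against 8.54% of tested genes and 12.4% of windows. A gene was counted if any of its windows matched, so shares of genes and shares of single windows are not alike. These are matches of letters, not binding sites.

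None of the 30 genes passed the test. Of 14989 genes tested with edgeR's quasi-likelihood test and Benjamini-Hochberg adjustment, 7 (0.0467%) were called at an adjusted p of 0.05, 2 of them higher (0.0133%) and 5 lower (0.0334%) in Ercc1 delta/+. Of the 30, 0 were called, with a smallest adjusted p of 0.164. DESeq2, the edgeR exact test and limma-voom also called 0 of the 30, while calling 7.44%, 3.59% and 0.347% of the genes they tested. At an unadjusted p below 0.05 there were 7 of the 30 (23.3%), against 18.6% of all genes tested, and 6 of the 7 had lower values in Ercc1 delta/+ (20.0% of the 30, against 9.57% of all genes). Groups did not overlap for 3 of the 30 (10.0%), against 1803 of 14989 genes over the whole table, which is a similar share. They were 1 gene with higher mutant values, against 5.17% of all genes, and 2 with lower ones, against 6.86%. The log2 fold change was negative for 21 of 30 (70.0%), against 50.5% of all genes tested, with medians of -0.09 for the 30 and 0.00 for all genes. With the depth term 17 of the 30 were negative, against 48.9% of all genes, and the median was -0.04. The median absolute log2 fold change was 0.126 for the 30 and 0.138 for all genes. All 30 genes had a 95% interval of the log2 fold change within -1 and 1, and 23 had one within -0.5 and 0.5, so differences of 2-fold or more lay outside the interval of each.

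**Figure D1:**
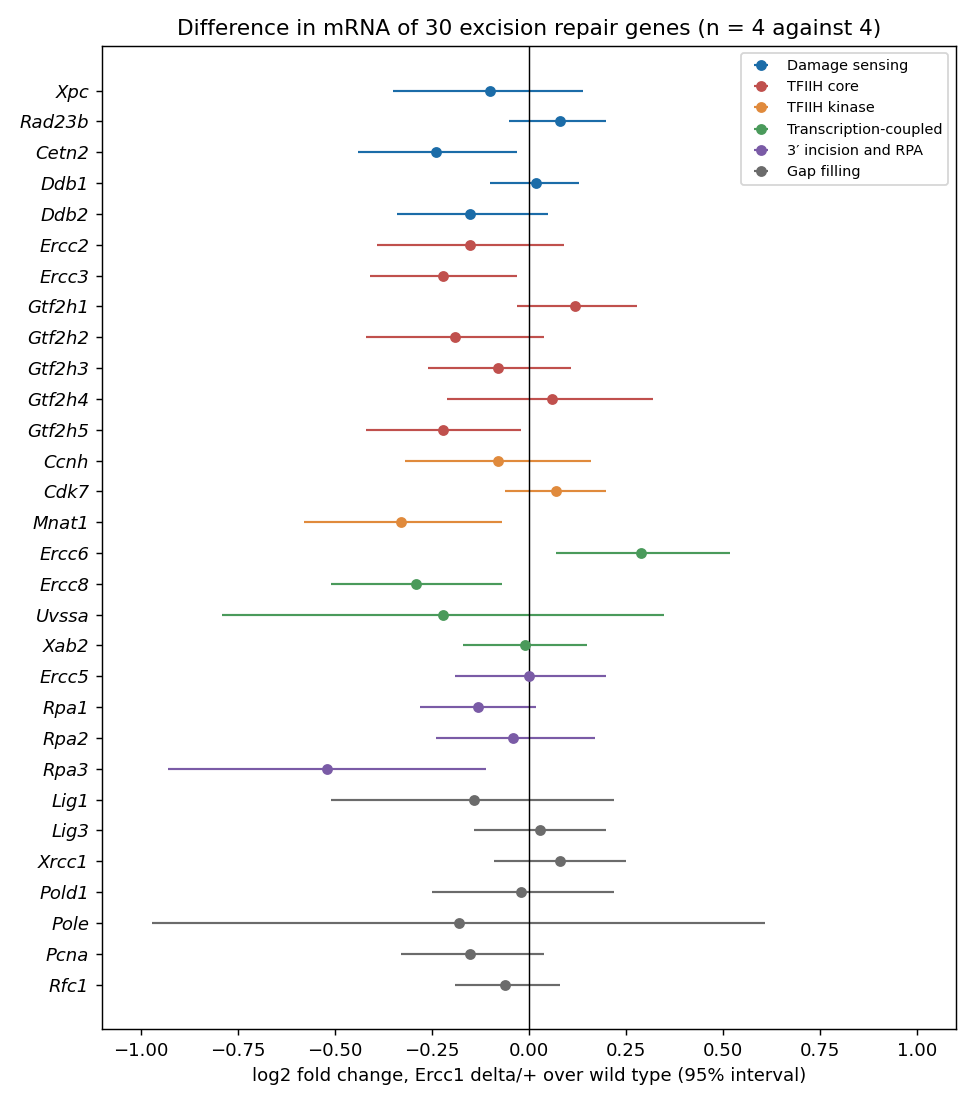
Log2 fold change of Ercc1 delta/+ over wild type for the 30 genes, ordered by role, with points for the estimate and bars for its 95% interval (edgeR quasi-likelihood fit, n = 4 libraries per group). Intervals of Cetn2, Ercc3, Gtf2h5, Mnat1, Ercc8 and Rpa3 lie below 0 and that of Ercc6 above 0 before adjustment for 14989 tests, and Pole and Uvssa have the widest intervals.

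Among the 5 damage sensing genes the log2 fold changes ran from -0.24 to 0.08, and 0 passed. Xpc encodes the protein that binds distorted DNA in the global pathway. It held 18.9, 17.6, 21.7 and 18.3 CPM in Ercc1 delta/+ libraries 1 to 4, against 18.0, 18.7, 22.4 and 23.1 CPM in wild type libraries 1 to 4. The groups overlapped, with wild type libraries 3 and 4 and mutant library 3 at the top, and the log2 fold change was -0.10 (SE 0.11, adjusted p = 0.649). Rad23b, the stabilising partner of XPC, held 198.7, 196.8, 196.5 and 203.7 CPM in Ercc1 delta/+, against 194.4, 196.4, 184.6 and 179.5 CPM in wild type. All 4 mutant libraries lay above all 4 wild type libraries, but mutant library 3 and wild type library 2 were 196.5 and 196.4 CPM, and the log2 fold change was 0.08 (SE 0.06, adjusted p = 0.502).

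The centrin gene Cetn2, which encodes a calcium-binding subunit of the XPC complex and of the centrosome, held 21.4, 24.5, 25.0 and 24.3 CPM in Ercc1 delta/+, against 29.6, 29.0, 24.1 and 29.7 CPM in wild type. Wild type library 3 alone lay within the mutant range, and the log2 fold change was -0.24 (SE 0.09, adjusted p = 0.211). With a correction for length and GC content (the offset described further on) it was 0.02, so the direction turned. Ddb2, the lesion-binding subunit of the UV-damaged DNA binding protein, held 19.4, 22.0, 21.9 and 20.9 CPM in mutants, against 23.2, 21.3, 22.3 and 26.3 CPM in wild type, and its log2 fold change was -0.15 (SE 0.09, adjusted p = 0.390). Its groups overlapped through wild type library 2. Ddb1, which links DDB2 to a ubiquitin ligase and serves many other substrates, averaged 316 ± 6.12 CPM in Ercc1 delta/+ and 313 ± 2.45 CPM in wild type. Its coefficient of variation in wild type, 0.783%, was the smallest of the 30 genes, and the 95% interval of its log2 fold change ran from -0.10 to 0.13.

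TFIIH has 10 genes on the list, 7 for its core and 3 for its kinase module, and the factor also starts transcription by RNA polymerase II. Of the 10, 7 had a negative log2 fold change (median -0.11), against 50.5% of all genes tested, and 0 passed. With the length and GC offset described further on, 5 of the 10 were negative and the median was -0.01. With the depth term 8 of the 10 were negative (median -0.08), against 48.9% of all genes. The XPB helicase gene Ercc3 held 26.5, 28.4, 31.1 and 25.2 CPM in Ercc1 delta/+, against 32.8, 29.5, 33.6 and 33.6 CPM in wild type. Mutant library 3 lay above wild type library 2, the other 3 mutants lay below all wild type libraries, and the log2 fold change was -0.22 (SE 0.08, adjusted p = 0.211). Its values also split by total, at 25.2 to 29.5 CPM in the 4 libraries of lowest total and 31.1 to 33.6 CPM in the others. The share of all genes that split this way was not counted. The log2 fold change of Ercc3 was -0.12 with the depth term in the fit. Gtf2h5, the smallest core subunit, which is mutated in a form of trichothiodystrophy, held 30.6, 35.5, 31.6 and 28.6 CPM in mutants, against 34.5, 41.1, 34.6 and 37.1 CPM in wild type. Its log2 fold change was -0.22 (SE 0.09, adjusted p = 0.224), and mutant library 2 was the only one inside the wild type range. The log2 fold change of Gtf2h5 was -0.27 with the depth term and -0.08 with the length and GC offset. Ercc2, which encodes the XPD helicase that checks the damaged strand, held 35.2, 35.7, 44.3 and 41.4 CPM in Ercc1 delta/+, against 45.7, 36.3, 45.8 and 46.1 CPM in wild type. The values split between the same libraries: the 4 libraries of lowest total held 35.2 to 41.4 CPM and the other 4 held 44.3 to 46.1 CPM. The log2 fold change was -0.15 (SE 0.11, adjusted p = 0.478), and 0.00 with the depth term.

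The remaining core subunits showed no common direction. Gtf2h1, which binds XPC and other recruiting proteins, averaged 36.3 ± 1.28 CPM in Ercc1 delta/+ and 33.4 ± 2.31 CPM in wild type, and Gtf2h4, an anchor of XPB, 11.1 ± 1.16 CPM in Ercc1 delta/+ and 10.6 ± 1.21 CPM in wild type. Their log2 fold changes were 0.12 and 0.06. Gtf2h1 split by total in the other direction from Ercc2 and Ercc3. It held 35.7 to 38.0 CPM in the 4 libraries of lowest total and 31.2 to 35.1 CPM in the others, and stood at 0.07 with the depth term. Gtf2h2, the partner that stimulates XPD, averaged 12.2 ± 1.37 CPM in mutants, against 14.0 ± 1.01 CPM in wild type, with a log2 fold change of -0.19, and Gtf2h3, a structural subunit, 12.5 ± 0.792 CPM in mutants, against 13.2 ± 0.412 CPM in wild type, with -0.08.

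In the kinase module, which phosphorylates RNA polymerase II, 0 of 3 genes passed. Mnat1, the assembly factor of the module, held 10.1, 12.4, 9.09 and 9.29 CPM in Ercc1 delta/+, against 12.5, 13.5, 12.1 and 13.0 CPM in wild type. Mutant library 2 overlapped wild type library 3 and the other 3 mutants lay below all wild type libraries. The log2 fold change was -0.33 (SE 0.11, 95% interval -0.58 to -0.07, adjusted p = 0.173), or 0.798 times the wild type level. It was -0.41 with the depth term and -0.20 with the length and GC offset. The kinase gene Cdk7 held 55.6, 59.8, 61.0 and 61.2 CPM in mutants, against 58.1, 53.8, 55.5 and 58.9 CPM in wild type, where mutant library 1 lay inside the wild type range and the log2 fold change was 0.07 (SE 0.06, adjusted p = 0.560). Its cyclin gene Ccnh averaged 30.4 ± 2.86 CPM in mutants, against 32.0 ± 3.96 CPM in wild type, a log2 fold change of -0.08.

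**Figure D2:**
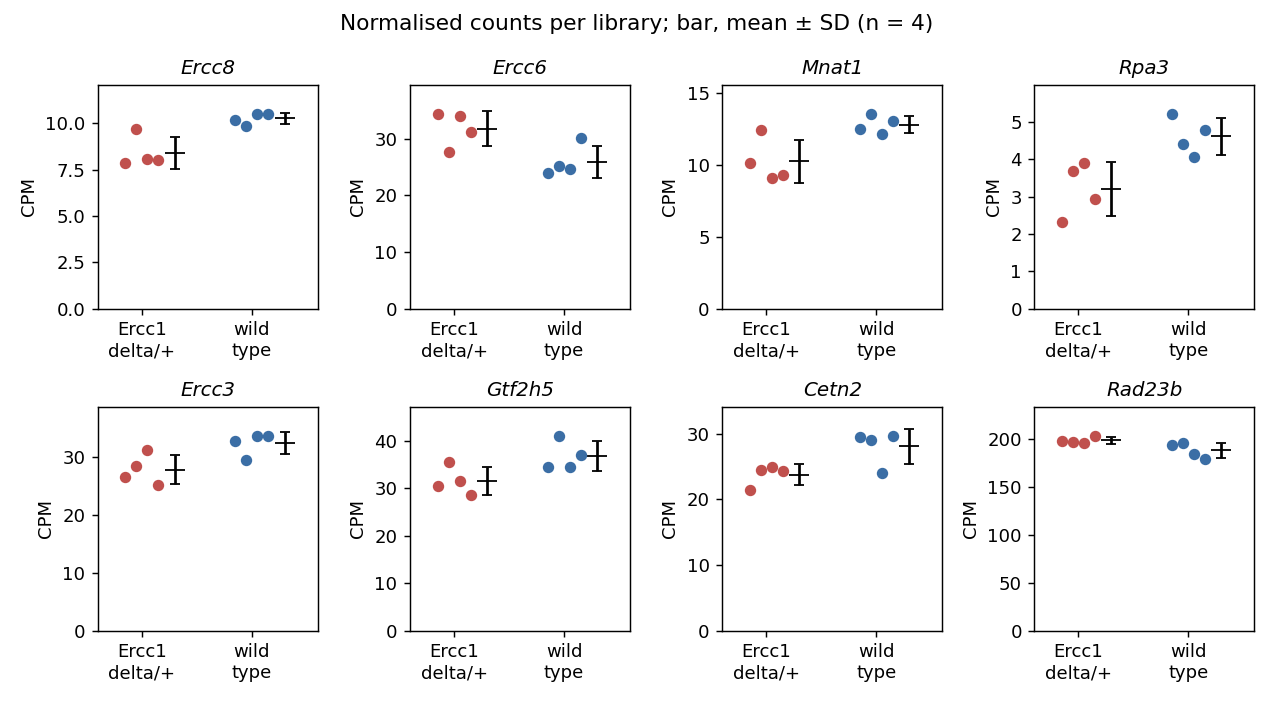
Normalised counts (CPM, axes from 0) of 8 genes in the 4 Ercc1 delta/+ libraries (left) and the 4 wild type libraries (right), with the mean and SD beside the points. Ercc8 and Rpa3 have no overlap between groups, Rad23b comes closest to overlap at 196.5 CPM in a mutant and 196.4 CPM in a wild type library, and in Mnat1, Gtf2h5 and Ercc3 a single mutant library reaches the wild type range.

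Of the 4 transcription-coupled genes, Ercc8 and Ercc6 had an unadjusted p below 0.05 with opposite signs, and 0 passed after adjustment. Ercc8 encodes the CSA protein, the substrate receptor of the ubiquitin ligase that acts on a stalled polymerase. It held 7.85, 9.69, 8.07 and 8.01 CPM in Ercc1 delta/+, against 10.2, 9.86, 10.5 and 10.5 CPM in wild type. All mutant libraries lay below all wild type libraries, with mutant library 2 close to them, and the log2 fold change was -0.29 (SE 0.10, 95% interval -0.51 to -0.07, adjusted p = 0.164). This was the smallest p of the 30 genes, and the fitted level was 0.817 times that of wild type. Ercc6 encodes the CSB protein, the ATPase that first grips the stalled polymerase. It held 34.3, 27.6, 33.9 and 31.2 CPM in Ercc1 delta/+, against 23.9, 25.1, 24.6 and 30.1 CPM in wild type. Mutant library 2 lay below wild type library 4 and the others did not overlap, and the log2 fold change was 0.29 (SE 0.10, 95% interval 0.07 to 0.52, adjusted p = 0.173), or 1.22 times. With the depth term Ercc6 stood at 0.34 and Ercc8 at -0.29, and with the length and GC offset at 0.19 and -0.25.

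Uvssa, which brings TFIIH to the stalled polymerase, was the most variable of the 4. It averaged 13.8 ± 2.34 CPM in Ercc1 delta/+ and 16.0 ± 6.07 CPM in wild type, and its wild type values ran from 9.81 CPM in library 2 to 23.3 CPM in library 4. The log2 fold change was -0.22 (SE 0.25); it was 0.12 with the depth term and 0.02 without wild type library 4, so its direction was not stable. Xab2, which binds XPA and also takes part in splicing, averaged 42.8 ± 2.60 CPM in mutants, against 43.1 ± 2.58 CPM in wild type, a log2 fold change of -0.01 with a 95% interval from -0.17 to 0.15.

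Ercc5 encodes XPG, the nuclease that cuts on the 3′ side of the lesion and so is the counterpart of the nuclease mutated here. It held 23.3, 21.6, 26.0 and 24.3 CPM in Ercc1 delta/+, against 23.8, 21.3, 24.3 and 25.7 CPM in wild type. The groups overlapped throughout, and the log2 fold change was 0.00 (SE 0.09, 95% interval -0.19 to 0.20, adjusted p = 0.997). The trimer RPA coats the undamaged strand during repair and also serves replication. Its smallest subunit gene, Rpa3, held 2.32, 3.68, 3.91 and 2.93 CPM in mutants, against 5.21, 4.41, 4.06 and 4.79 CPM in wild type, with raw counts of 50 to 108 in mutants and 89 to 157 in wild type. No mutant library reached a wild type library, and the log2 fold change of -0.52 (SE 0.18, 95% interval -0.93 to -0.11, adjusted p = 0.179) was the lowest of the 30 as normalised by TMM. With the length and GC offset it was -0.11, and several of the 30 were lower. The lowest then were Pole, Uvssa and Ercc2 at -0.30, -0.28 and -0.26. Rpa1, the large DNA-binding subunit, held 51.7, 61.1, 56.1 and 53.9 CPM in Ercc1 delta/+, against 64.2, 60.2, 60.2 and 59.2 CPM in wild type. Mutant library 2 lay inside the wild type range and the other 3 below it, at a log2 fold change of -0.13 with SE 0.07 (adjusted p = 0.326). Rpa2 averaged 11.1 ± 0.943 CPM in mutants, against 11.4 ± 0.495 CPM in wild type, a log2 fold change of -0.04.

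The 7 gap filling genes had log2 fold changes from -0.18 to 0.08 and 0 below an unadjusted p of 0.05. Pcna, the sliding clamp of DNA synthesis, held 25.4, 29.5, 25.7 and 25.6 CPM in Ercc1 delta/+, against 27.5, 30.5, 31.7 and 27.8 CPM in wild type. Mutant library 2 lay among the wild type libraries and the other 3 below them, and the log2 fold change was -0.15 (SE 0.08, adjusted p = 0.363). The pseudogene Pcna-ps2 matches the Pcna transcript at 99.2% over 781 bases, so reads could have been shared. Xrcc1, the scaffold that carries DNA ligase III and is held to seal gaps in cells that do not divide, held 25.5, 24.1, 28.4 and 26.8 CPM in mutants, against 25.4, 24.5, 26.0 and 23.3 CPM in wild type, with overlapping groups, and its log2 fold change was 0.08 (SE 0.08, adjusted p = 0.596). Its partner gene Lig3 averaged 38.0 ± 2.97 CPM in mutants, against 37.3 ± 2.14 CPM in wild type, and the clamp loader gene Rfc1 40.0 ± 0.961 CPM in mutants, against 41.7 ± 2.10 CPM in wild type, with log2 fold changes of 0.03 and -0.06.

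Lig1, the ligase of dividing cells, averaged 18.5 ± 3.14 CPM in Ercc1 delta/+ and 20.5 ± 4.13 CPM in wild type. The 4 libraries of lowest total held 15.1 to 18.9 CPM and the other 4 held 19.0 to 26.3 CPM, and the log2 fold change of -0.14 was 0.05 with the depth term. Pold1, the catalytic subunit of DNA polymerase delta, averaged 9.06 ± 0.810 CPM in mutants, against 9.15 ± 0.791 CPM in wild type, a log2 fold change of -0.02. Pole, that of polymerase epsilon, was the rarest of the 30, with 23, 24, 43 and 28 counts in Ercc1 delta/+ libraries and 29, 13, 50 and 71 in wild type libraries. At this depth its interval ran from -0.97 to 0.61, and the estimate of -0.18 was 0.27 with the depth term. Of 15 markers of dividing cells, 14 were found and 12 had enough counts to be tested. Their summed level was 54.0 to 58.3 CPM in mutants and 51.4 to 60.4 CPM in wild type, the median log2 fold change was 0.04, and 0 passed.

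**Figure D3:**
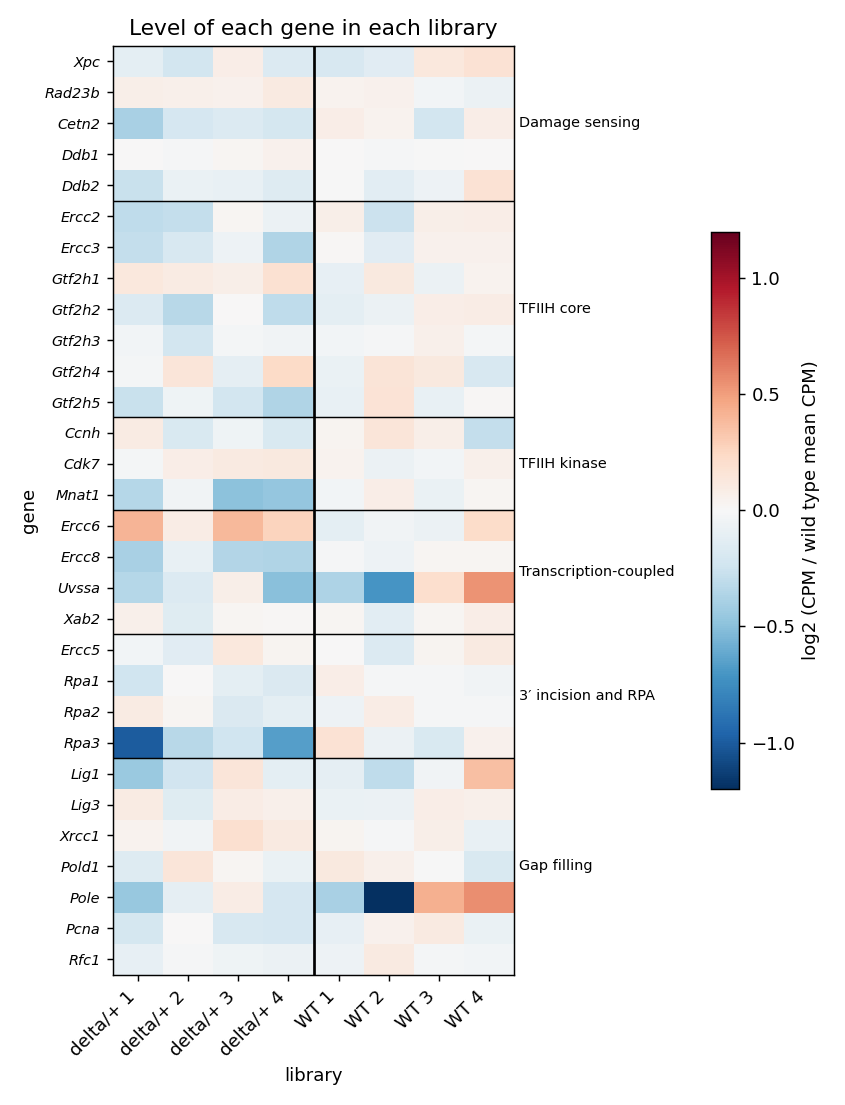
Level of the 30 genes (rows, by role) in the 4 Ercc1 delta/+ libraries (left of the line) and the 4 wild type libraries (right), as log2 of CPM over the wild type mean of the gene. Ercc8, Rpa3 and Mnat1 are pale to dark blue across the mutant libraries and Ercc6 is red, while Uvssa, Lig1 and Pole vary most within the wild type libraries.

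Per transcript length, the 30 genes spanned a wide range of levels that was shared by both genotypes. In CPM per kilobase of transcript, Ddb1 stood at 71.0 ± 1.37 in Ercc1 delta/+ and 70.1 ± 0.549 in wild type, followed by Rad23b at 52.2 ± 0.873 in Ercc1 delta/+ and 49.5 ± 2.11 in wild type. Pole, at 0.184 ± 0.0282 in mutants and 0.206 ± 0.0999 in wild type, was the lowest. Within the core of TFIIH the levels were closer together, from 4.68 for Gtf2h3 to 14.1 for Gtf2h5 in mutants and from 4.95 to 16.4 in wild type for the same genes. The kinase module was uneven, with Cdk7 at 29.9, Ccnh at 14.8 and Mnat1 at 4.07 in mutants, and 28.5, 15.7 and 5.09 in wild type. Among the recognition factors Xpc stood at 5.26 in mutants and 5.65 in wild type, below its partners Rad23b, given above, and Cetn2, at 18.5 in mutants and 21.8 in wild type. The Cockayne syndrome genes were low on this scale, with Ercc8 at 3.98 in mutants and 4.86 in wild type and Ercc6 at 3.77 in mutants and 3.08 in wild type. Transcript lengths were those of the matched GENCODE M21 transcripts. For Rpa1 the 2 deposited rows share nearly all counts (11261 and 11257) but have lengths of 2942 and 5077 bases, so its level per length of 18.9 in mutants and 20.7 in wild type holds for the shorter one.

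**Figure D4:**
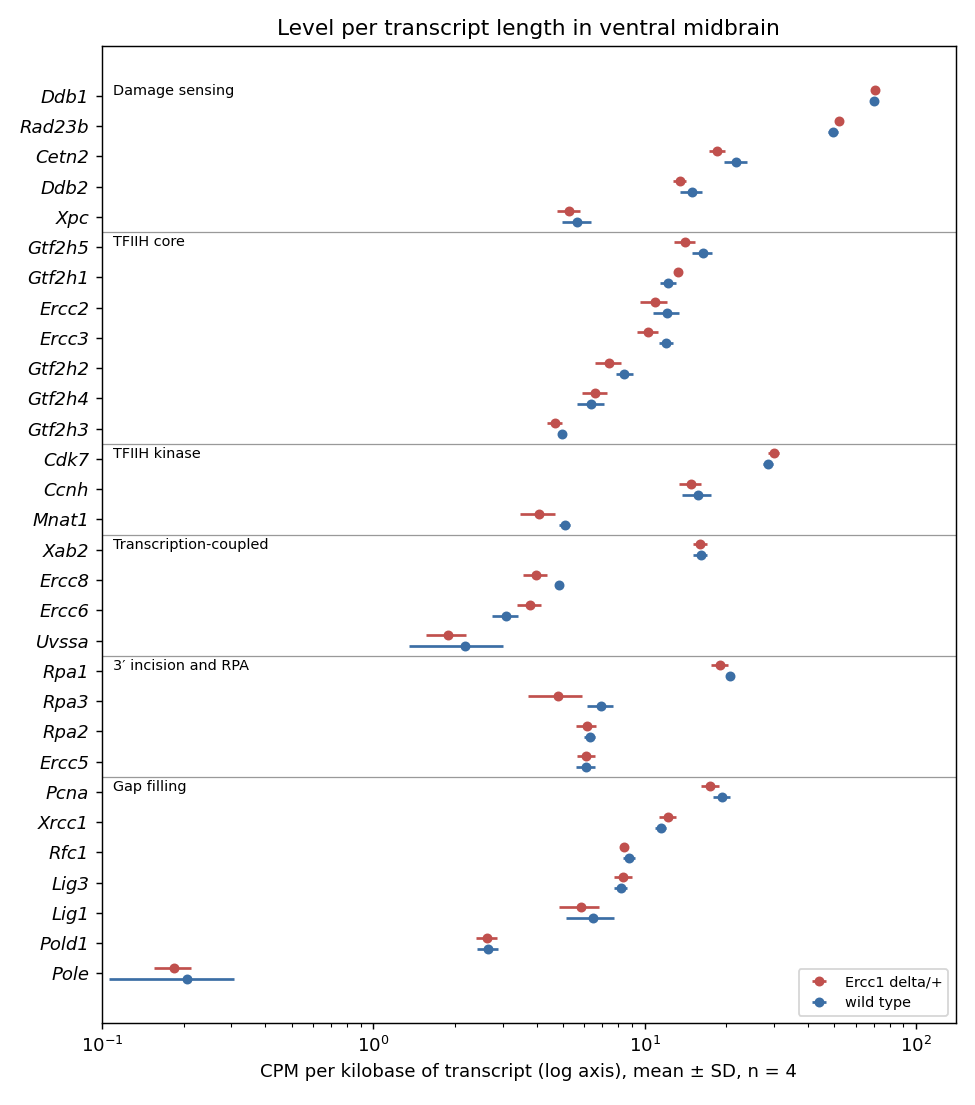
Level per transcript length (CPM per kilobase, log axis) of the 30 genes by role, with Ercc1 delta/+ above wild type in each row, as mean and SD of 4 libraries. The order of the genes is set by levels that range from about 0.2 for Pole to about 70 for Ddb1, and the 2 genotypes lie close together in each row.

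Differences also followed transcript length across the whole table, so each class of length is given with its own background. In 3890 tested genes with transcripts under 2000 bases the median log2 fold change was -0.13 and 73.5% were negative. In 4658 genes of at least 4000 bases it was 0.09 with 30.2% negative. Of the 30 repair genes, 8 were under 2000 bases, and 6 of the 8 were negative with a median of -0.15. Between 2000 and 4000 bases there were 16, of which 12 were negative (median -0.09, against 51.7% negative and a median of -0.01 over 6148 genes). Of the 6 genes of at least 4000 bases, 3 were negative (median -0.02). Across the 30, which share their libraries, Spearman's coefficient of the log2 fold change with length was 0.332, given as a description. With an offset per library for the trend over length and GC content, 19 of 30 were negative, against 49.3% of all genes, and the median was -0.06. By class, the medians with the offset were 0.02 under 2000 bases, -0.11 between 2000 and 4000 bases and -0.06 above. Over all genes of these classes they were -0.01, 0.00 and 0.02. Rpa3, whose transcript of 670 bases is the shortest, went to -0.11 with the offset, Cetn2 to 0.02 and Gtf2h5 to -0.08. With the same offset Ercc8 stood at -0.25, Mnat1 at -0.20, Ercc3 at -0.22 and Ercc6 at 0.19. Uvssa (-0.28) and Pole (-0.30), with transcripts of 7326 and 7163 bases, lay below the trend of long genes.

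**Figure D5:**
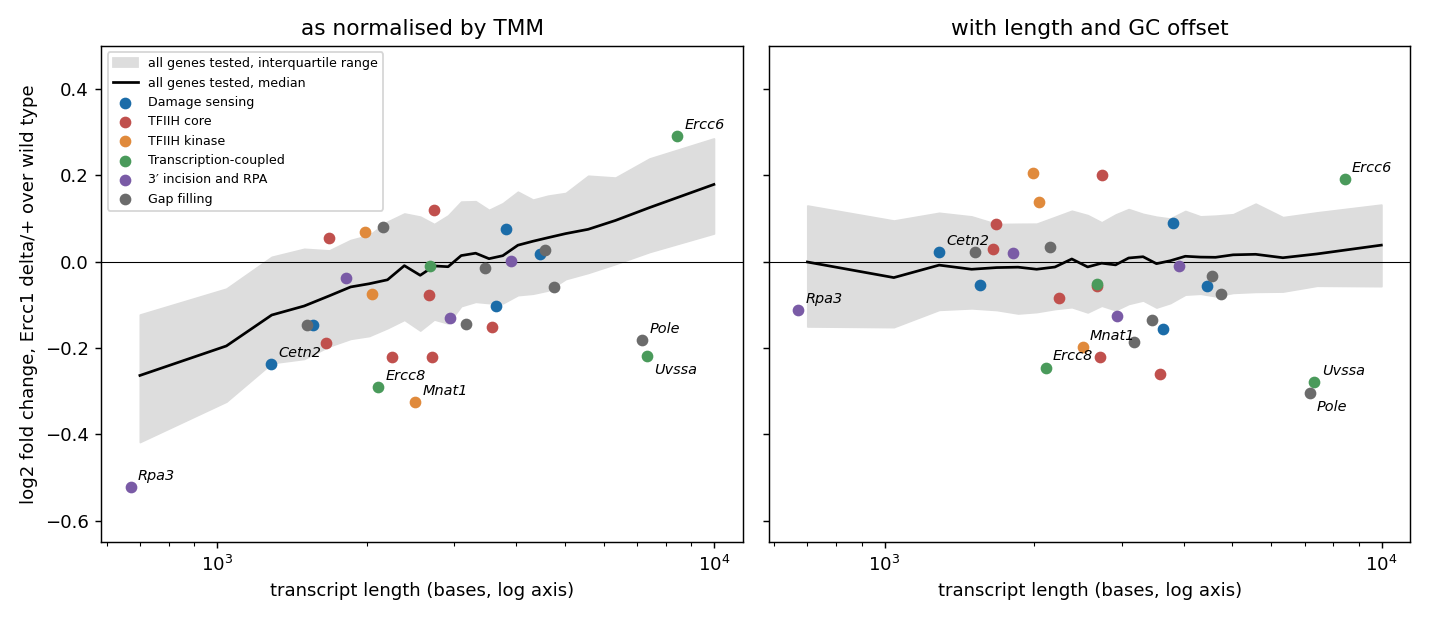
Log2 fold change of Ercc1 delta/+ over wild type against transcript length (bases, log axis) for the 30 genes, coloured by role, over the median and interquartile range of all genes tested in 24 length classes, as normalised by TMM (left) and with the length and GC offset (right). Rpa3 at 670 bases and -0.52 lies low on the left and at -0.11 on the right, and Ercc6 lies above the median in both.

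Position and annotation limit some of these values. Of the 30 genes 5 lie on chromosome 7 with Ercc1, and Ercc2 is separated from it by only 2 protein-coding genes, Cd3eap and Ppp1r13l. Lig1 and Xrcc1 are separated from Ercc1 by 106 and 157 such genes, Pold1 by 559 and Gtf2h1 by 664. The log2 fold changes of the 5 were -0.15, -0.14, 0.08, -0.02 and 0.12 in that order, and 0 passed. Exons of 8 genes (Ddb1, Ddb2, Ercc2, Ccnh, Xab2, Lig1, Lig3 and Pole) overlap a gene on the other strand in GENCODE M21, and since no source used here says whether counting used strand, reads of the 2 genes cannot be told apart there. Both Lig1 and Rpa1 had several deposited rows, 3 and 2, and the authors' deposited table gives log2 fold changes of -0.19 to -0.17 for the rows of Lig1 and -0.14 for those of Rpa1. Over the 30 genes, the lowest adjusted p in the authors' deposited table is 0.282, for Rpa3.

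The rest of the pathway was read from 23 further genes, of which 22 had enough counts to be tested, all but Pole2. Of the 22, 0 were called by the quasi-likelihood test and 2, Tcea1 and Rbx1, by DESeq2, which called 7.44% of all genes it tested. The log2 fold change was negative for 18 of the 22, against 50.5% of all genes, with a median of -0.11. With the length and GC offset 15 were negative and the median was -0.03, and with the depth term 14 were negative. Tcea1, an elongation factor that restarts stalled polymerase, averaged 66.3 ± 3.36 CPM in Ercc1 delta/+ and 79.6 ± 5.15 CPM in wild type, with non-overlapping groups, and its log2 fold change was -0.26 (SE 0.07, adjusted p = 0.0946). Rbx1, the RING subunit of the ubiquitin ligases that hold DDB2 and CSA, averaged 70.0 ± 5.48 CPM in mutants, against 81.8 ± 2.06 CPM in wild type, also without overlap (log2 fold change -0.22, SE 0.07, adjusted p = 0.124). Elof1, an elongation factor of transcription-coupled repair, had -0.31 (SE 0.11, adjusted p = 0.174). With the length and GC offset Tcea1 stood at -0.09, Rbx1 at -0.10 and Elof1 at -0.18. The 17 polymerase II and general factor genes found of 18 listed, which share the transcription role of TFIIH, had a median of -0.18, with 14 negative and 6 with lower, non-overlapping mutant values (6.86% of all genes). None of the 17 was called by the quasi-likelihood test. DESeq2 and the edgeR exact test, which called 7.44% and 3.59% of all genes they tested, each called 2, Gtf2a2 and Polr2k. The authors' deposited table gives Gtf2a2 an adjusted p of 0.011. In the quasi-likelihood test Gtf2a2 (-0.72, SE 0.14, adjusted p = 0.0619), Polr2k (-0.71, SE 0.18, adjusted p = 0.0920) and Polr2g (-0.25, SE 0.08, adjusted p = 0.170) had the smallest p-values of the 17. Their transcripts have 893, 601 and 890 bases. With the offset 12 of the 17 were negative and the median was -0.04. With the depth term 15 were negative and the median was -0.19.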

How the data were processed

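The authors deposited raw counts per coding RefSeq transcript for the 8 samples. The submitters' processing notes name TopHat 1.3.1, edgeR and mm9. How reads were counted, with what use of strand and of reads with several placements, is not given in the sources used here. The deposited log2 fold changes and p-values are the authors' own comparison. Per the labels' protocols, poly(A) RNA above a quality threshold was used and all barcoded libraries shared 1 lane.

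Of 19931 rows, 19600 were matched to symbols through RefSeq (GRCm38.p6) and GENCODE M21, used for names, length, GC content and gene order. The row of highest total stood for each gene, and 45 genes with identical counts were merged, leaving 15274. Counts were tested with edgeR 4.0.16 in R 4.3.3 (quasi-likelihood, TMM, filterByExpr, robust=FALSE, Benjamini-Hochberg adjustment over 14989 genes, threshold 0.05, two-sided). SE is the estimate over the root of F, and 95% intervals use the moderated degrees of freedom. Replicates differed beyond sampling noise (lowest chi-square over degrees of freedom 11.7). The depth term marks the 4 libraries of lowest total, which also held the 4 highest sums of cortical and hippocampal markers. The test was tried on simulated data.

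Every gene of the list is named. Values per library are given where groups do not overlap, for the 2 smallest p of each role, and for 8 genes chosen by name. Members and lists were chosen with earlier results of these data known. Alternatives were RLE and upper-quartile scaling, other filters, DESeq2 1.42.0, limma-voom (limma 3.58.1), the exact test of edgeR, robust dispersion, a replicate block, the depth term, the length and GC offset (lowess, span 0.3), summed rows and leaving out each library.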

Additional observations from a re-analysis of the deposited data

Results flagged for a closer look

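In 60 groups of 4 libraries (30 genes in each genotype), 5 held a library whose gap to the nearest other exceeded Dixon's 95% critical value as a share of the range of the group, where chance gives about 1 in 20. Ercc1 delta/+ library 2 was the far one in 3 of the 5. It was the highest mutant library for Ercc8, at 9.69 CPM with a gap of 0.878 of the range, and for Pcna, at 29.5 CPM with a gap of 0.908. It was the lowest mutant library for Gtf2h3, at 11.3 CPM with a gap of 0.887. In wild type, library 2 was lowest for Ercc2, at 36.3 CPM with a gap of 0.966, and library 3 was lowest for Cetn2, at 24.1 CPM with a gap of 0.879. Without Ercc1 delta/+ library 2, 9 of the 30 genes had an unadjusted p below 0.05, against 7 with it, while the count over all genes tested was 2999, against 2789 with it, and 0 of the 30 passed after adjustment.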

How the results depend on the processing

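Of the 30 genes 0 were called under any of 20 other settings, and the lowest adjusted p of any of them was 0.0541, for Mnat1 without Ercc1 delta/+ replicate 2. The median of the 30, -0.09, ran from -0.11 with upper-quartile scaling to -0.06 with the length and GC offset and -0.04 with the depth term among the settings with all libraries, and the count of negative values, 21, was 17 with the depth term. In 17 of 30 genes no sign turned, counting Ercc5, which stood at 0.00 and ran from -0.05 to 0.10. The count of called genes over the whole table was less stable: 7 became 33 with RLE scaling, 86 with upper-quartile scaling, 50 with 1 CPM in 4 libraries, 538 with the exact test, 1028 with DESeq2, 52 with limma-voom, 1 with the depth term and 1 with the length and GC offset. On leaving out each library in turn it ran from 0 to 321: 3, 321, 1 and 0 without Ercc1 delta/+ 1 to 4, 2 without wild type 1, and 1 without each other wild type library. Whether the replicate numbers pair the samples cannot be decided from these values. Same-number correlations ran from -0.275 to 0.262 and different-number ones from -0.522 to 0.502. With the replicate block 0 genes were called, while 2928 had an unadjusted p below 0.05. Signs turned with the depth term for Gtf2h4 (-0.05), Uvssa (0.12), Xab2 (0.04), Lig1 (0.05) and Pole (0.27), with the length and GC offset for Cetn2 (0.02), Ddb1 (-0.06), Gtf2h2 (0.03), Ccnh (0.14), Rpa2 (0.02), Lig3 (-0.03) and Pcna (0.02), and with upper-quartile scaling for Ddb1 (-0.01). Leaving out a library turned Pold1 (-0.07 to 0.03), Xab2 (-0.05 to 0.03), Rpa2 (-0.08 to 0.01), Gtf2h4 (-0.01 to 0.11), Uvssa (-0.39 to 0.02) and Pole (-0.41 to 0.07). The causes were not tested. Low counts limit Pole and Rpa3.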

Other observations

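Ratios of raw counts within a library do not depend on library size but do carry the trend over transcript length. For 3 pairs of partners, chosen after their values had been seen, they are given with no test. The ratio of Mnat1 to Cdk7, an assembly factor and its kinase, was 0.181, 0.206, 0.149 and 0.152 in Ercc1 delta/+ libraries 1 to 4, against 0.215, 0.25, 0.218 and 0.22 in wild type libraries 1 to 4. The groups did not overlap, and the share of all gene pairs without overlap was not counted. The ratio of Ercc6 to Ercc8, the Cockayne syndrome pair, was 4.37, 2.85, 4.2 and 3.89 in mutants and 2.34, 2.55, 2.34 and 2.87 in wild type, where mutant library 2 lay just below wild type library 4. The ratio of Rpa3 to Rpa1 was 0.0573 ± 0.0104 in mutants and 0.0757 ± 0.00664 in wild type (SD, n = 4 each), and the groups overlapped through mutant library 3 and wild type library 3. Their transcripts differ in length (670 and 2942 bases), and with the length and GC offset the log2 fold changes of Rpa3 and Rpa1 were -0.11 and -0.13.

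By library, 24 and 22 of the 30 genes lay above their mean over the 8 libraries in wild type libraries 3 and 4, and 10 and 11 did so in Ercc1 delta/+ libraries 1 and 4. Mutant library 3, the deepest of its group, had 19 above, against 13 in mutant library 2, 17 in wild type library 1 and 16 in wild type library 2.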
